A study of Homo sapiens with 32 samples.

Results

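The genes described here are 62 genes matched by symbol to the Wnt signalling pathway, out of 7978 genes in a table of reads per merged N6-methyladenosine (m6A) peak. They were chosen by symbol: Wnt ligands, Frizzled (FZD) and LRP5/6 receptors, ROR co-receptors, antagonists outside the cell, R-spondins with their receptors and ubiquitin ligases, Dishevelled (DVL) proteins, members of the destruction complex with the CSNK1 kinases and tankyrase, nuclear partners of β-catenin, and core planar cell polarity genes, with antisense genes left out. Together they carried 253 of the 26104 merged peaks, a median of 4 peaks a gene against 2 over all genes; 8 members had 1 peak and 24 had 5 or more. APCDD1, a membrane-bound Wnt antagonist, and TNKS1BP1, a tankyrase-binding protein, matched the rule by their spelling and are kept as a group of their own. TNKS1BP1 is not a pathway component, but it is counted among the 62.

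RNA came from H1 and MEL1, 2 human embryonic stem cell (hESC) lines, taken undifferentiated (S0) or at 3 later steps of culture. S3 cells are labelled posterior foregut, S4 cells pancreatic progenitors, and S6 cells β-like and immature. Each line gave 2 preparations a stage, and each preparation gave an input library, which measures mRNA, and a library from RNA fragments precipitated with an antibody against m6A (IP), 32 libraries in all. The differentiation medium of the first days held a small-molecule inhibitor of GSK3 in both lines, and no differentiated condition without it was analysed here; S0 cells come from before that medium. Cultures hold mixed cells, so fewer cells of a type and less RNA per cell cannot be told apart.

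Input libraries held 2652830 to 6879256 reads in merged peaks and IP libraries 2378881 to 15674899. The 2 MEL1 S4 IP libraries were the shallowest, at 2378881 and 2483580 reads, against 7422690 or more in the other 14. The 2 H1 S4 IP libraries stood apart in makeup, with 0.047% and 0.051% mitochondrial reads against 0.388% to 2.254% in the other 14, and 1.85% and 1.78% of reads in the 62 genes against 1.02% to 1.49%. All 62 members and 253 peaks passed the filter of 10 reads in total. Levels are given as CPM (input counts scaled to library size by TMM). Markers followed the stage labels in part: 5 of 5 posterior foregut genes were called higher at S3 than S0, 5 of 6 undifferentiated genes lower, and 3 of 3 endocrine genes in the table, of 9 listed, higher at S6 than S0. From S3 to S4, 0 of 4 pancreatic progenitor genes were called, and their summed level in H1 was 94.2 and 79.7 CPM at S3 and 27.3 and 24.7 at S6, against 42.5 and 40.4 and then 147 and 147 in MEL1. The lines differed in markers of other cells. The summed level of the 4 of 7 listed liver-like genes in the table (AFP, APOA1, APOB, VTN) was 28500 to 32500 CPM in MEL1 at S3 and 62600 to 65700 at S4, against 443 to 451 and 146 to 200 in H1. NEFL and NEFM together, 2 of 4 listed neuronal genes, reached 3130 to 3270 CPM in H1 at S6 and 413 to 426 in MEL1. Gut genes (2 of 3 listed) summed to 434 to 480 CPM in MEL1 at S3 and 18.7 to 20 in H1, and mesenchyme genes (4 of 5 listed) to 719 to 788 in MEL1 at S4 and 65.9 to 90.7 in H1.

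Wnt proteins are lipid-modified and need the carrier WLS to leave the cell. They bind Frizzled receptors, and with LRP5 or LRP6 this stops the destruction complex (AXIN, APC, GSK3, CSNK1) from marking β-catenin for degradation, so that β-catenin can act with TCF/LEF factors. ROR receptors, VANGL and PRICKLE proteins act in β-catenin-independent branches that orient cells. In endoderm, Wnt signalling first helps to form the tissue and is later held back where foregut organs arise. m6A is a base modification of mRNA placed by a methyltransferase complex that contains METTL14.

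The largest set of expression changes came between S0 and the differentiated stages. Of the 62 members, 14 had risen and 5 had fallen by S3, where calls made up 15.0% (higher) and 13.8% (lower) of the 7973 genes tested. A call needed at least a 2-fold change and an adjusted p under 0.1 in the quasi-likelihood test of edgeR, adjusted after Benjamini and Hochberg over all genes. From S3 to S4, 3 members were higher and 0 lower, against 1.49% and 0.351% of all genes. The 3 (WNT7B, APCDD1 and NKD1) were all lost without a line term in the model, which gave 0 calls, while the 8 libraries of the comparison alone gave 11. DESeq2 called 7 higher and 1 lower there, and edgeR 6 members without the first MEL1 S0 library, 1 without the first MEL1 S3 library and 5 without the second. The share of all genes called was not computed for these alternatives. From S4 to S6, 1 member was higher and 2 lower, against 2.85% and 2.33%. That count of 3 became 6 with DESeq2, 5 with the 8 libraries of the comparison, 7 in H1 alone (11.3%, against 9.36% of all genes) and 16 in MEL1 alone (25.8%, against 15.8%). Between S0 and S6, 20 members were higher and 6 lower, against 17.5% and 13.8%. The median log2 fold change of the members from S0 to S6 was 0.45, and that of all genes 0.03.

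**Figure D1:**
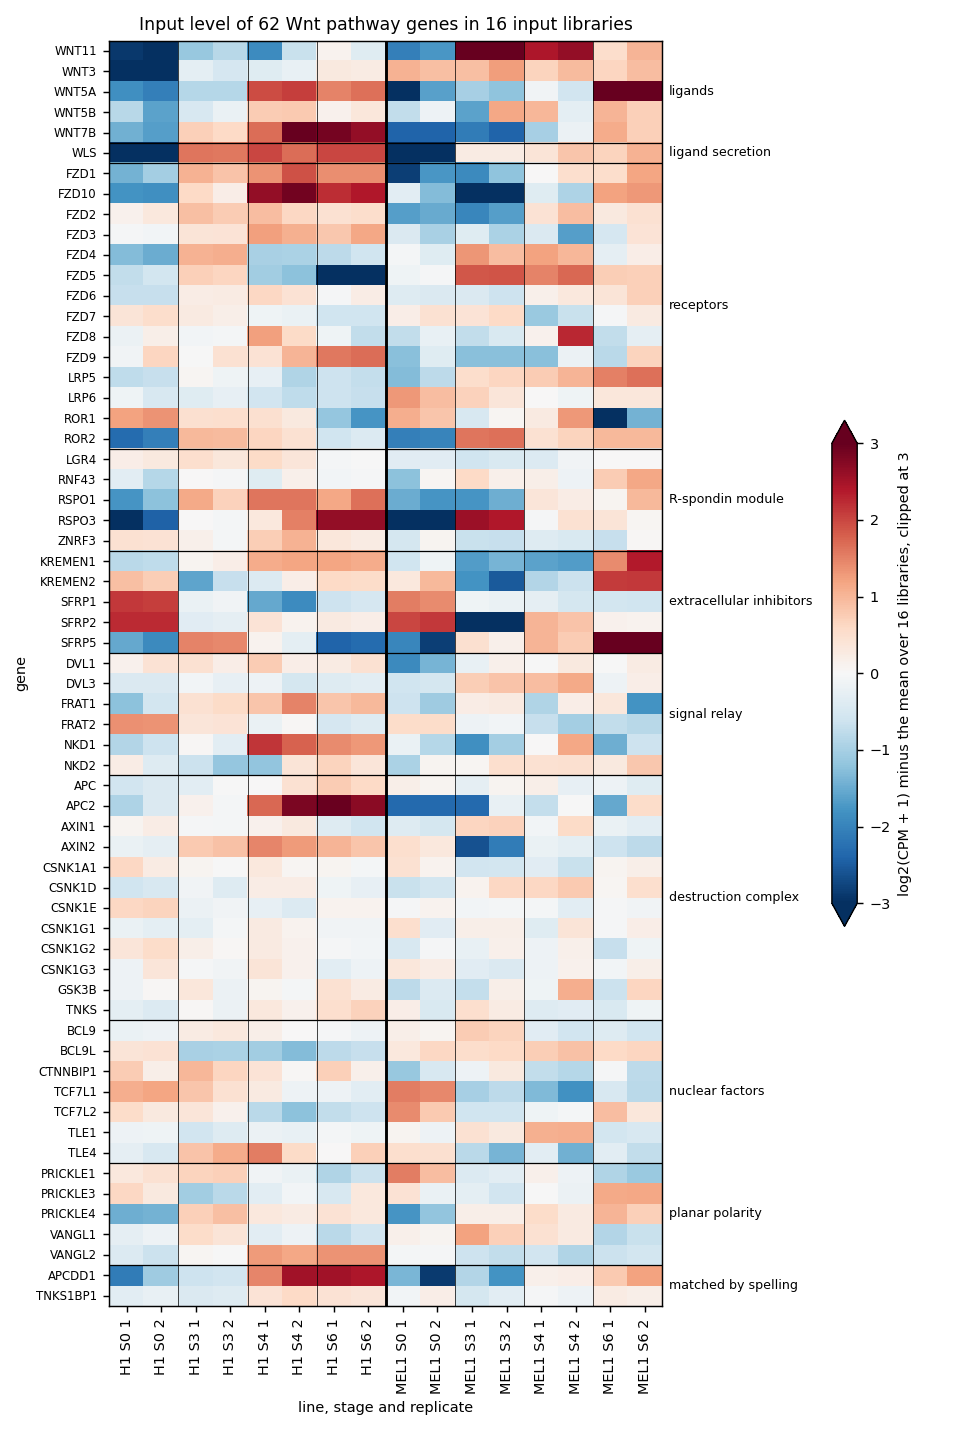
Input level of the 62 genes in each of the 16 input libraries, as log2(CPM + 1) minus the gene's mean over the libraries, clipped at 3 in both directions. Genes are grouped by role, H1 libraries stand left of the thick line and MEL1 libraries right of it. WLS is low in all 4 S0 libraries and high in the other 12, while rows such as AXIN2, SFRP5 and FZD10 differ between the lines.

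Among ligands, 2 of 5 were higher at S3 than S0 and 4 of 5 at S6 than S0, and 0 were lower in either. The carrier WLS moved furthest in relation to its error. WLS measured 5.80 and 11.1 CPM in the H1 S0 libraries and 6.37 and 7.18 in MEL1. At S3 it measured 301 and 296 CPM in H1 and 117 and 117 in MEL1. All S3 libraries lay above all S0 libraries, by a log2 fold change of 4.61 (SE 0.26, edgeR adjusted p = 4.73e-09), and the S6 libraries stayed there, between 156 and 398 CPM (log2 fold change 5.12, SE 0.26, edgeR adjusted p = 2.54e-09).

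WNT11, a ligand mostly known for β-catenin-independent signalling, measured 0.242 and 0 CPM at S0 in H1 and 1.23 and 1.74 in MEL1. Its S3 libraries read 3.15 and 4.12 CPM in H1 but 153 and 141 in MEL1. The groups did not overlap (log2 fold change 6.02, SE 0.87, edgeR adjusted p = 7.06e-05), and most of the height was in MEL1, where WNT11 then stood at 48.3 and 56.4 CPM at S4 and 12.3 and 17.7 at S6. WNT5A, another ligand of that branch, was late: it read 0 to 4.35 CPM at S0 and 6.09 to 8.08 at S3. In H1 it then read 63.0 and 68.6 CPM at S4 and 44.9 and 50.7 at S6. In MEL1 it read 14.3 and 9.96 at S4 and 182 and 187 at S6. It was higher at S6 than S0 by 5.49 on the log2 scale (SE 0.82, edgeR adjusted p = 8.94e-05).

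WNT7B was at 0 in both MEL1 S0 libraries and at 0.966 and 0.682 CPM in H1. It rose at S3 (log2 fold change 2.94, edgeR adjusted p = 0.00686), at S4 against S3 (2.36, edgeR adjusted p = 0.0478) and by S6 against S0 (6.14, edgeR adjusted p = 1.01e-05), with S6 libraries at 38.0 and 32.2 CPM in H1 and 10.5 and 7.66 in MEL1. In MEL1 the S3 libraries still held 0.250 and 0 CPM, so the S3 call rested on H1. WNT5B rose by S6 only weakly (log2 fold change 2.12, SE 0.83, edgeR adjusted p = 0.0501), from 15 reads in 4 libraries to 50. WNT3 passed in no stage comparison and instead differed between lines: 0.483 and 0.227 CPM in H1 S0 against 25.1 and 22.9 in MEL1 S0.

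Receptors were the largest group, with 5 of 14 higher and 0 lower at S3 than S0, 0 called from S3 to S4, 2 lower from S4 to S6, and 6 higher and 1 lower at S6 than S0. ROR2, a receptor tyrosine kinase that binds WNT5A, measured 14.5 and 17.7 CPM in H1 S0 and 17.5 and 18.5 in MEL1 S0. At S3 it read 151 and 148 in H1 and 234 and 241 in MEL1, with no overlap between the groups (log2 fold change 3.46, SE 0.27, edgeR adjusted p = 1.49e-07). ROR1, its paralog, went the other way: 70.7 to 102 CPM at S0 and 4.11 to 17.0 at S6, again without overlap (log2 fold change -2.92, SE 0.35, edgeR adjusted p = 1.21e-05). ROR1 was also lower at S6 than at S4 (-2.46, SE 0.35, edgeR adjusted p = 0.000909).

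Among Frizzled receptors, FZD4 rose to 65.9 to 87.6 CPM at S3 from 11.6 to 32.9 at S0 (log2 fold change 2.01, SE 0.32, edgeR adjusted p = 0.000179). FZD5 rose in both lines to S3 (1.54, SE 0.47, edgeR adjusted p = 0.0167) and then parted: H1 stood at 16.5 and 16.8 CPM at S6, below its S0 libraries at 84.8 and 97.1, while MEL1 kept 238 and 236, above its S0 libraries at 131 and 138. FZD1 rose at S3 (2.08, edgeR adjusted p = 0.0045) and at S6 (3.55, SE 0.51, edgeR adjusted p = 6.34e-05). At S6 FZD10, FZD2 and FZD9 were also higher than at S0, by 2.85, 1.16 and 1.74 (edgeR adjusted p = 0.0175, 0.0425 and 0.0763), though FZD2 was not called in H1 alone, nor FZD9 in MEL1 alone. FZD8 was called lower at S6 than S4, with 4 reads over the S6 libraries and 44 at S4, of which the MEL1 library of replicate 2 gave a level of 7.01 CPM and the others 2.96 or less (edgeR adjusted p = 0.0477).

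LRP5, a co-receptor of the β-catenin branch, rose at S3 (log2 fold change 1.04, SE 0.37, edgeR adjusted p = 0.0365) and was higher at S6 than S0 (1.34, SE 0.39, edgeR adjusted p = 0.0115). Its S6 level came from MEL1, at 407 and 449 CPM, while H1 at S6 held 91.8 and 87.1, next to 83.1 and 87.3 at S0. LRP6 was called in no stage comparison, and FZD7, the member with the most input reads among receptors, was not called either: its 4 S0 libraries lay between 370 and 464 CPM and the S6 libraries between 210 and 387.

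**Figure D2:**
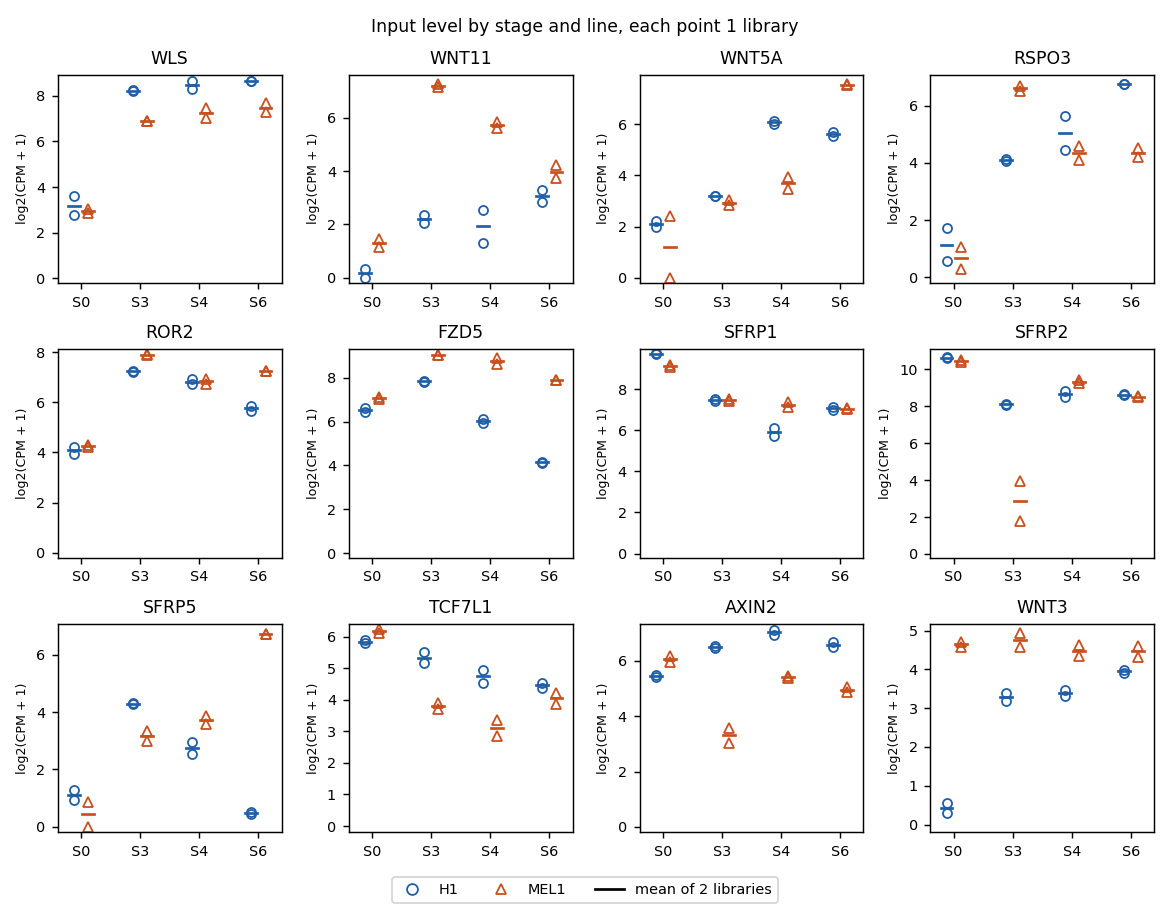
Input level of 12 genes by stage, in log2(CPM + 1), with each point 1 library (circles H1, triangles MEL1) and a bar at the mean of 2 libraries. SFRP1 and SFRP2 are highest at S0 in both lines, whereas FZD5, SFRP5 and AXIN2 take different courses in H1 and MEL1.

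R-spondins amplify Wnt signals by keeping the ligases RNF43 and ZNRF3 from clearing Frizzled receptors. RSPO3 rose at S3 (log2 fold change 5.94, SE 0.96, edgeR adjusted p = 0.000188) from 0.206 to 2.27 CPM at S0. The S3 level was 16.6 and 15.9 CPM in H1 and 102 and 91.6 in MEL1, and the order of the lines turned by S6, at 108 and 108 in H1 and 22.0 and 17.3 in MEL1. RSPO1 had 3 reads over the 4 S0 libraries, 56 at S3 and 102 at S6, and was called at both stages (edgeR adjusted p = 0.00644 and 0.000283); no fold is given against 3 reads. At S3 its reads were almost all from H1, at 6.5 and 4.53 CPM, with 0 and 0.226 in MEL1. RNF43 was higher at S6 than S0 by 1.14 (SE 0.36, edgeR adjusted p = 0.0201). ZNRF3 and the receptor LGR4 were called in no stage comparison.

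The antagonists outside the cell, which include the surface receptors KREMEN1 and KREMEN2, moved in both directions. SFRP1 and SFRP2, Frizzled-like proteins that bind Wnts outside the cell, were at their highest at S0. SFRP1 measured 862 and 840 CPM in H1 S0 and 577 and 537 in MEL1, and 172 to 185 in all 4 S3 libraries. The groups were far apart (log2 fold change -2.0, SE 0.29, edgeR adjusted p = 7.65e-05) and SFRP1 remained low at S6, between 128 and 140 CPM (-2.42, SE 0.30, edgeR adjusted p = 1.31e-05). SFRP2 fell from 1360 to 1610 CPM at S0 to 269 and 283 in H1 S3 and to 2.5 and 14.7 in MEL1 S3. The call at S3 (log2 fold change -3.77, SE 0.88, edgeR adjusted p = 0.00319) thus joined a moderate drop in H1 and a near loss in MEL1, and SFRP2 came back in MEL1 to 685 and 614 CPM at S4. It was lower at S6 than S0 by a smaller margin (-1.97, SE 0.78, edgeR adjusted p = 0.0516).

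SFRP5, a related antagonist of foregut endoderm, rose at S3 in both lines, to 18.9 and 18.3 CPM in H1 and 9.01 and 6.99 in MEL1, from 0 to 1.45 at S0 (log2 fold change 4.34, SE 1.37, edgeR adjusted p = 0.0204). Afterwards it stood at 0.355 and 0.441 CPM in H1 S6 and at 105 and 106 in MEL1 S6. The call at S6 against S0 (5.43, SE 1.46, edgeR adjusted p = 0.00728) therefore came from MEL1, and H1 alone had a log2 fold change of -1.51. KREMEN2, which removes LRP6 from the surface together with DKK proteins, was lower at S3 (-2.64, SE 0.53, edgeR adjusted p = 0.00107) and higher at S6 than S4 (2.01, SE 0.51, edgeR adjusted p = 0.0296), when MEL1 reached 40.0 and 40.3 CPM. That later call was not made in H1 alone. KREMEN1 was higher at S6 than S0 (2.55, SE 0.70, edgeR adjusted p = 0.00849). APCDD1 rose from S3 to S4 (2.51, SE 0.51, edgeR adjusted p = 0.0237), a call not made in MEL1 alone, and was higher at S6 than S0 (4.27, SE 0.56, edgeR adjusted p = 2.54e-05), with S6 libraries at 41.0 and 38.8 CPM in H1 and 11.6 and 16.1 in MEL1. TNKS1BP1 was called in no stage comparison.

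Inside the cell fewer members were called. Of 6 relay genes, 1 rose and 0 fell by S3, while 1 rose and 1 fell by S6, each against S0. FRAT1 and FRAT2, paralogs that bind GSK3, took opposite directions. FRAT2 measured 192 and 189 CPM in H1 S0 and 109 and 109 in MEL1, and 51.5, 56.2, 43.7 and 41.1 in the S6 libraries (log2 fold change -1.60, SE 0.15, edgeR adjusted p = 9.92e-07). FRAT1 was low throughout, at 0.483 to 1.36 CPM at S0 and 3.00 to 4.12 at S3 (1.85, SE 0.66, edgeR adjusted p = 0.0352). Its S6 libraries overlapped with S0, since 1 MEL1 library held 0 (1.76, edgeR adjusted p = 0.0442). NKD1, a Wnt-induced inhibitor of DVL, rose from S3 to S4 (2.31, SE 0.49, edgeR adjusted p = 0.0289), to 38.3 and 29.2 CPM in H1 and 7.98 and 18.8 in MEL1. DVL1, DVL3 and NKD2 were called in no stage comparison.

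The promoters of FRAT1, FRAT2 and WNT5B are shown because they were the members' promoters that held a motif searched for. RefSeq promoters (GRCh38.p14, 250 bases before to 50 after the gene start) were found for 43 members and searched on both strands for TGTTTAC, bound by FOXA factors that mark foregut endoderm, for AGATAA, bound by GATA factors, and for CTTTGAT, bound by TCF/LEF factors. TGTTTAC stood in 3 of the 43 (6.98%, against 3.41% of 27305 promoters), AGATAA in 0 (10.5% of all promoters) and CTTTGAT in 0 (2.64%). The 250 bases before each start follow, 5′ to 3′ on the gene's strand, with TGTTTAC in capitals. FRAT1 is chr10:97319021-97319270 (plus strand), FRAT2 chr10:97334730-97334979 (minus strand) and WNT5B chr12:1616806-1617055 (plus strand).
FRAT1: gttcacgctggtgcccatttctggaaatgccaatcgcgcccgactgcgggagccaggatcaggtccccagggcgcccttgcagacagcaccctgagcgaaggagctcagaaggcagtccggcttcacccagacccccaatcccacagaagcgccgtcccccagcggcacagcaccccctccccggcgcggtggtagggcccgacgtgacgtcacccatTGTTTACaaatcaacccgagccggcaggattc
FRAT2: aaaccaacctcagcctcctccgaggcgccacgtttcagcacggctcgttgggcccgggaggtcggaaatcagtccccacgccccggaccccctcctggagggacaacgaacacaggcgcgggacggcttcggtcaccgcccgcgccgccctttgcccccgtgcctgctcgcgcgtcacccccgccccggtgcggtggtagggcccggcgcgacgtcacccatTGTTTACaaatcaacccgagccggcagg
WNT5B: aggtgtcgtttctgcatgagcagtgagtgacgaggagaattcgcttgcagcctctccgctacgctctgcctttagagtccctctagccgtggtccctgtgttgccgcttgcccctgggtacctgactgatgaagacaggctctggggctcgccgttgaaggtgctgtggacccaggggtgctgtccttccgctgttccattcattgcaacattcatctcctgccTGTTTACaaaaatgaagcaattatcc
FRAT1 and FRAT2 share a run of 40 bases that holds the match, and they were the members of the relay that moved in opposite directions. A match describes these letters and says nothing about binding.

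In the destruction complex 1 of 12 members was higher and 0 lower at S3 than S0, none was called from S3 to S4 or from S4 to S6, and 1 was higher at S6 than S0. That member was APC2 in both cases. APC2, an APC homologue known from the nervous system, was at 0 in both MEL1 S0 libraries and at 1.69 and 2.73 CPM in H1. It reached 38.5 and 32.4 CPM in H1 S6 and 0.747 and 6.45 in MEL1 S6 (log2 fold change 4.13, SE 0.80, edgeR adjusted p = 0.000763), so its height was in H1. H1 was also the line with the higher neuronal marker level at S6. In H1 S4 APC2 already stood at 15.8 and 34.8 CPM, with NEFL and NEFM together at 225 and 220 CPM. The part of neuronal cells in the result was not tested. At S3 its groups overlapped (1.90, SE 0.86, edgeR adjusted p = 0.0913). APC, GSK3B, AXIN1, TNKS and the 6 CSNK1 kinases were not called, and their log2 fold changes from S0 to S3 lay within 1 in both directions.

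AXIN2, a scaffold of the complex that β-catenin itself induces, was not called in any pooled comparison, and the lines moved apart. H1 measured 43.5 and 41.2 CPM at S0 and 86.7 and 91.9 at S3. MEL1 measured 70.7 and 61.8 at S0 and 7.26 and 10.8 at S3. The change of MEL1 was lower than that of H1 (log2 MEL1 minus H1 -3.94, SE 0.27, edgeR adjusted p = 6.11e-10), and AXIN2 then stood at 43.3 and 40.6 CPM in MEL1 S4 and 139 and 122 in H1 S4.

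Of 7 nuclear factors, TCF7L1 was called in both comparisons with S0, and 0 were higher. TCF7L1, a mostly repressive TCF of pluripotent cells, measured 54.1 and 58.0 CPM in H1 S0 and 74.2 and 68.6 in MEL1, against 44.7, 34.6, 12 and 14 at S3 (log2 fold change -1.52, SE 0.36, edgeR adjusted p = 0.00363) and 13.7 to 22.2 at S6 (-1.91, SE 0.36, edgeR adjusted p = 0.000628). Its groups did not overlap in either comparison. The group's most read member, BCL9L, a co-activator of β-catenin, was not called in the pooled fit. It read 608 and 626 CPM in H1 S0 and 233 and 239 in H1 S3 (log2 fold change -1.39), against 571 and 706 and then 669 and 695 in MEL1 (0.09), and the line difference passed its test (edgeR adjusted p = 2.99e-06).

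Among planar polarity genes, PRICKLE4 was higher and PRICKLE3 lower at S3 than S0, and PRICKLE4 higher and PRICKLE1 lower at S6 than S0. PRICKLE4 read 3.91 to 6.31 CPM at S0 and 17.8 to 30.1 at S3 without overlap (log2 fold change 2.17, SE 0.26, edgeR adjusted p = 1.39e-05), and 19.8 to 32.9 at S6 (2.28, SE 0.26, edgeR adjusted p = 7.89e-06). PRICKLE3 read 6.53 to 12.3 CPM at S0 and 3.15 to 6.01 at S3 (-1.19, SE 0.35, edgeR adjusted p = 0.0148). PRICKLE1 fell to 17.7 to 24.7 CPM at S6 from 49.3 to 117 at S0 (-1.83, SE 0.31, edgeR adjusted p = 0.000282). VANGL1 and VANGL2 were not called, though VANGL2 stood at 189 and 174 CPM in H1 S4 and 51.3 and 40.6 in MEL1 S4.

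The call held in each line fitted alone for 8 of the 14 members higher at S3 (FZD4, FZD5, PRICKLE4, ROR2, RSPO3, SFRP5, WLS, WNT11) and for 3 of the 5 lower (KREMEN2, SFRP1, SFRP2). At S6 against S0 it held in both lines for 13 of 20 higher and 6 of 6 lower members. Of the other 7, FZD2, LRP5, RNF43 and SFRP5 were not called higher in H1 alone, and FRAT1, FZD9 and WNT5B not in MEL1 alone. For these comparisons with S0, the share of all called genes that held in both lines was not computed. The counts therefore do not show whether the members held more or less often than other genes. At S4 against S3, H1 alone gave 15 called members (24.2%, against 7.42% of all genes in that fit) and MEL1 alone 16 (25.8%, against 9.61%).

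The difference between lines was itself tested, as the change in MEL1 minus the change in H1. From S0 to S3 it passed for 30 of 62 members (48.4%), and for 45.9% of all genes. From S3 to S4 it passed for 22 members (35.5%), against 14.1% of all genes, and for 14 without the first H1 S3 library. From S4 to S6 it passed for 20 (32.3%), against 23.1%, and from S0 to S6 for 29 (46.8%), against 36.3%. By role, at S3 against S0 the lines differed in 8 of 14 receptors, 5 of 7 nuclear factors, 5 of 12 genes of the destruction complex, 4 of 6 relay genes, 3 of 5 antagonists outside the cell and 1 of 5 ligands. In 14 of the 30 members (46.7%) the 2 lines moved in opposite directions, as did 47.3% of all genes with a line difference. The shares were 40.9% against 71.5% from S3 to S4, 75.0% against 67.7% from S4 to S6 and 55.2% against 42.9% from S0 to S6.

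FZD10, a receptor, differed between the lines at S3 (edgeR adjusted p = 1.59e-07): it read 15.6 and 11.7 CPM in H1 S3 and 0 in both MEL1 S3 libraries, after 2.17 and 2.05 in H1 S0 and 7.81 and 3.48 in MEL1 S0. TLE4, a co-repressor that binds TCFs, read 16.4 and 20.0 CPM in H1 S3 and 4.50 and 2.71 in MEL1 S3, and 7.01, 5.91, 12.7 and 12.6 at S0 (log2 MEL1 minus H1 -3.31, edgeR adjusted p = 0.00027). For SFRP2 the difference was -4.78 (SE 0.39, edgeR adjusted p = 8.42e-09). The same libraries differed in the liver-like, gut, mesenchyme and neuronal markers given above, whose part in the line differences was not tested.

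**Figure D3:**
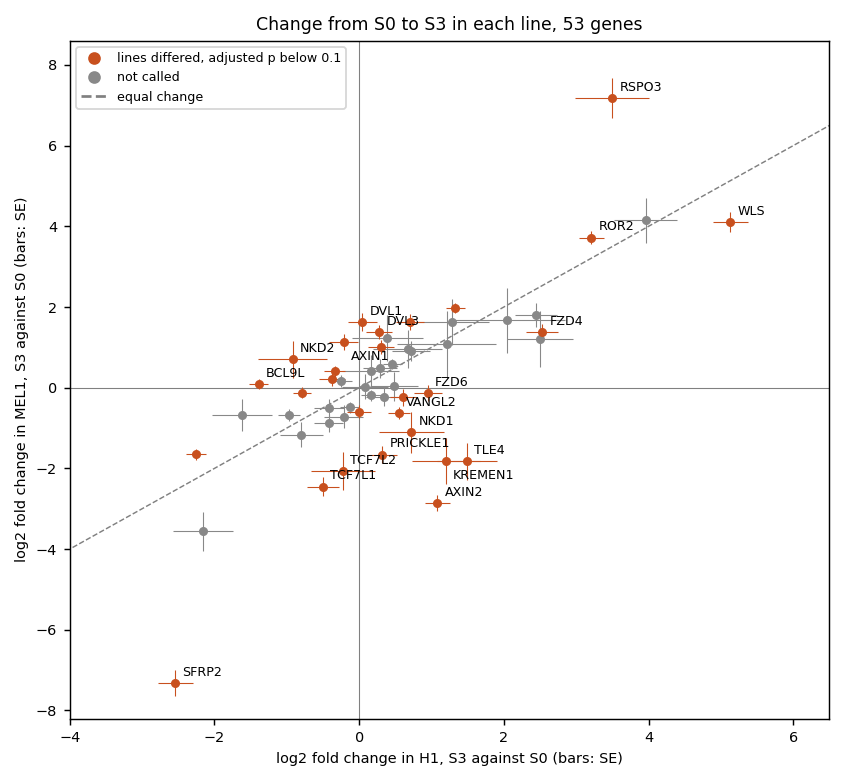
Log2 fold change from S0 to S3 in H1 (x axis) and in MEL1 (y axis) with standard errors, for the 53 genes with more than 3 reads in every line and stage compared. Points away from the dashed line of equal change are genes whose lines differed, with SFRP2 and AXIN2 below it and RSPO3 above it.

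Other genes of the pathway, from a list of 72 of which 47 were in the table, moved in both directions too. At S3 against S0, 12 were higher and 4 lower (15.0% and 13.8% of all genes), with the largest changes in CDX2 (log2 fold change 5.58, edgeR adjusted p = 1.54e-05) and HHEX (4.34, edgeR adjusted p = 0.00251), transcription factors of endoderm, and in DACT2 (3.22, edgeR adjusted p = 0.00536), a DVL-binding protein. From S3 to S4, 1 was higher (TPBG, a Wnt antagonist at the membrane, 1.32, edgeR adjusted p = 0.0878) and 0 lower (1.49% and 0.351% of all genes). From S4 to S6, 1 was higher and 4 lower (2.85% and 2.33% of all genes), among them CER1 (-3.84, edgeR adjusted p = 0.0172), SP5 (-2.78, edgeR adjusted p = 0.0313) and DACT2 (-2.63, edgeR adjusted p = 0.0444). SP5 is a direct target of β-catenin. At S6 against S0, 9 were higher and 7 lower (17.5% and 13.8% of all genes).

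m6A was read as the ratio of IP to input reads within a peak, on the log2 scale. Peaks are named by gene and by their start within the gene in bases. Of the 253 member peaks, the enriched ones numbered 72 in S0 cells, 75 in S3, 58 in S4 and 67 in S6 (at least 2-fold IP over input and edgeR adjusted p under 0.1). Over all peaks the shares were 30.7%, 30.3%, 20.8% and 28.4%. The ratio sets IP against input on 1 scale and depends on it: the median of all peaks at S0 was 0.28 with TMM, -0.34 with RLE size factors and 0.43 with TMM within each library type, and the ratios given here are those with TMM, not shifted by the median. With RLE 44 member peaks were enriched at S0 and 41 at S3 (17.4% and 16.2%), against 19.6% and 19.4% of all peaks. At S4 and S6 RLE gave 50 and 47 (19.8% and 18.6%), against 17.9% and 20.2%. S4 thus had the fewest enriched member peaks with TMM and the most with RLE.

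Of the 62 genes, 27 (43.5%) had an enriched peak at every stage, 20 (32.3%) at some stages and 15 (24.2%) at none, against 38.3%, 27.6% and 34.1% of all genes, which have fewer peaks each. With RLE these counts were 19, 20 and 23, against 28.7%, 27.1% and 44.3% of all genes. Of the member peaks, 31 (12.3%) were enriched at all 4 stages, against 14.9% of all peaks, and with RLE 20 (7.91%), against 9.97%. Several of these were deeply covered. TNKS1BP1 at 2100 held 516150 IP reads and ratios of 2.79, 2.30, 2.87 and 2.08 at S0, S3, S4 and S6. FZD7 at 1601 held 278826 IP reads and ratios of 2.79, 2.85, 3.40 and 2.35, and it was at least 2.25 in each of 16 preparations. FRAT2 at 614 (2.84, 2.84, 2.01 and 2.22), ROR2 at 1119 (2.61, 3.07, 2.68 and 2.42) and CSNK1D at 2275 (2.23, 2.72, 1.59 and 2.19) followed.

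Genes of most roles were among the 27, from ligands (WNT3, WNT5B, WNT7B, WNT11) and the ligases RNF43 and ZNRF3 to AXIN1, where the peak at 6638 had ratios of 2.35, 2.54, 2.63 and 2.51. Both FRAT1 peaks were enriched at all stages although the gene's input level was low. Other genes had none at any stage: WLS, SFRP1, SFRP2, SFRP5, LRP5, DVL1, DVL3, TCF7L1, TCF7L2, GSK3B, CSNK1G2, CTNNBIP1, FZD2, FZD8 and TLE4. Some of these were among the most read: the SFRP2 peak at 683 held 38809 input and 80458 IP reads and ratios of -1.10, -0.88, -0.06 and -0.28. FZD8 was thinly read, with 63 input reads in all, and its lines were split. Its ratio at S4 was 3.51 and 2.99 in H1 and -0.6 and -3.15 in MEL1. In LRP5 all 8 peaks were below 0 at every stage, whereas its paralog LRP6 had an enriched peak at 9538 at every stage (1.76, 1.44, 1.81 and 2.09). A ratio of -1 or lower at all 4 stages was found for 47 member peaks (18.6%) and 24.8% of all peaks.

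**Figure D4:**
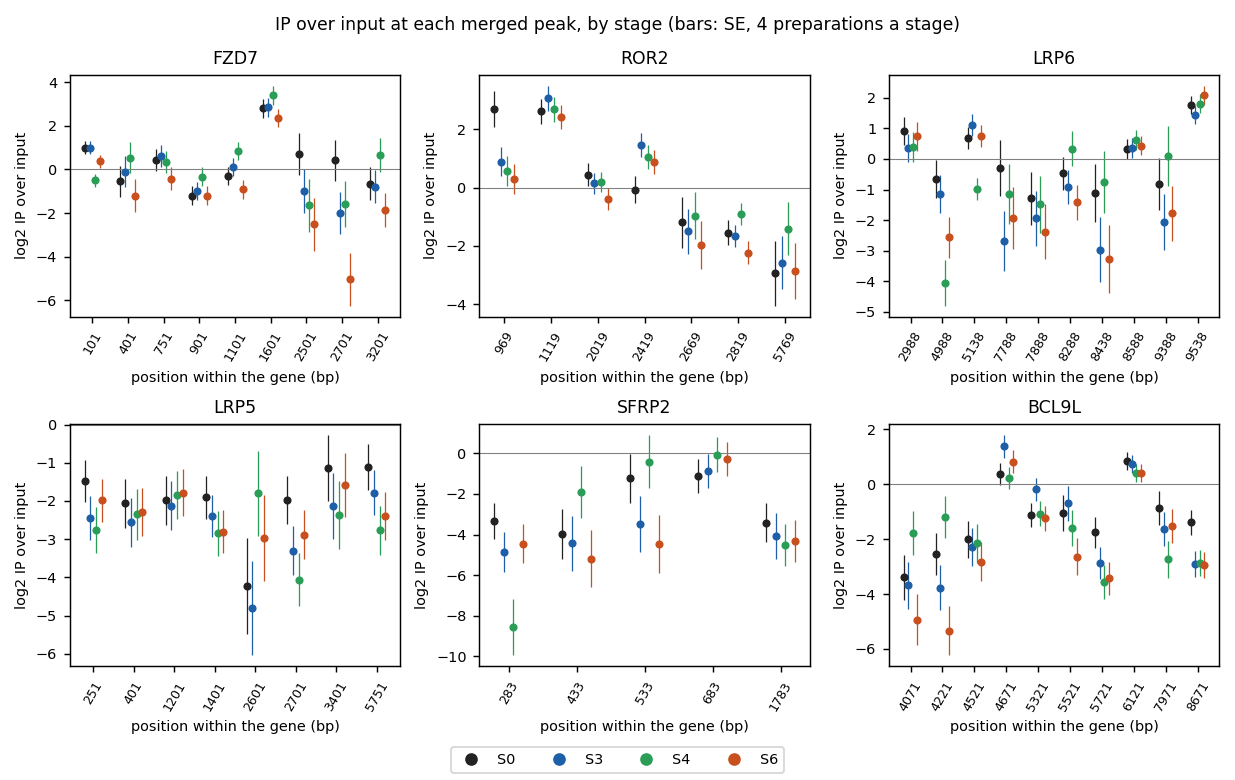
Log2 IP over input at each merged peak of 6 genes, ordered by start within the gene, with 1 point a stage and bars of 1 SE from 4 preparations a stage. FZD7, ROR2 and LRP6 each have a peak above 1 at every stage, and all LRP5 peaks lie below 0. The lowest S4 points rest on few IP reads.

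Between S0 and S3 edgeR called 0 member peaks higher and 0 lower, against 0.0306% and 0.0192% of all peaks, 9 member peaks had an unadjusted p under 0.05, and DESeq2 called 0. Each line alone gave calls: 4 higher and 16 lower in H1 (1.10% and 5.0% of all peaks), and 4 higher and 13 lower in MEL1 (2.73% and 6.07%). Changes can be missed with 4 preparations a stage, large ones among them. APC2 at 11501 changed by 3.67, not shifted by the median, without a call (SE 1.24, edgeR adjusted p = 0.576). The count of 0 therefore does not show that the peaks stayed the same. The median change of the member peaks was -0.27 and that of all peaks -0.20.

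From S3 to S4, 15 of the 253 member peaks, in 12 genes, were lower and 0 higher. These shares were near those of all peaks, 5.85% and 0.751%. The median change was -0.36 over all peaks and -0.22 over the member peaks. With the preparation as a block, which pairs IP and input of the same RNA, 24 were lower and 1 higher, 25 in all. The split differed between alternatives: DESeq2 called 8 higher and 8 lower, RLE size factors 0 and 4, and IP libraries thinned to the same depth 0 and 3. H1 alone gave 37 higher and 79 lower, against 15.8% and 30.4% of all peaks, and MEL1 alone 15 and 18, against 4.72% and 7.97%. The median of all peaks moved by -0.36 with TMM, 0.12 with RLE and -0.01 with TMM within each library type, so changes are given relative to the median of all peaks. The count also rested on single libraries. Without the first H1 S4 preparation 0 of the 15 calls were left and 1 other peak was called, although all 15 kept their direction. For the 9 peaks with more than 2 IP reads at S4, the log2 change, here not shifted by the median, was -2.92 to -1.18 with that preparation and -2.28 to -0.47 without it. Without the second H1 S4 preparation 7 were called, without the first or second H1 S3 preparation 9 or 6, and without either MEL1 S3 preparation 6, while leaving out both MEL1 S4 preparations gave 34 lower and 7 higher. Without both H1 S4 preparations, whose IP libraries stood apart, the split of called peaks turned to 10 higher and 3 lower. None of the 15 reversed its direction there, and 2 of the 15 calls remained (LRP6 at 4988 and TCF7L1 at 3501). Apart from the main fit and each line alone, the share of all peaks called was not computed. Those splits can therefore not be told from a shift of all peaks.

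The best covered of the 15 peaks were in a co-activator, receptors and kinases. BCL9 at 3201 had ratios of -1.22, -0.73, -1.02 and -1.03 at S3 and -3.11, -2.79, -3.16 and -2.03 at S4, without overlap, and was called under every alternative run but leaving out the first or both H1 S4 preparations. Its change was 1.65 below the median of all peaks (relative log2 change -1.65, edgeR adjusted p = 0.0137), with 1495 IP reads at S3 and 118 at S4. LRP6 at 5138 had ratios of 0.940, 0.490, 1.09 and 1.56 at S3 and -1.44, -0.700, -0.460 and -1.30 at S4 (relative change -1.71, edgeR adjusted p = 0.0237). That peak lies apart from the LRP6 peak at 9538, which was enriched at S4.

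FZD7 at 101 (relative change -1.14, edgeR adjusted p = 0.0381) moved likewise, while FZD7 at 1601 stayed enriched. CSNK1E at 2997 (-0.83), ROR1 at 2651 (-1.15), CSNK1G1 at 5063 (-1.12) and CSNK1G3 at 501 (-0.98) had edgeR adjusted p of 0.0517, 0.0548, 0.0586 and 0.0851. CSNK1E at 2997 and CSNK1G3 at 501 were called on their unshifted changes (-1.18 and -1.33) and fell short of 2-fold relative to the median. TCF7L1 at 3501 (-2.30, edgeR adjusted p = 0.0282) and LRP6 at 4988 (-2.56, edgeR adjusted p = 0.0782) held 18 and 13 IP reads over the S4 libraries. The other 6 had 2 IP reads or fewer at S4, and no fold is given: APC at 4051 held 141 IP reads at S3 and 2 at S4, CSNK1E at 397 held 62 and 0, CTNNBIP1 at 1890 held 66 and 2, DVL3 at 3801 held 58 and 1, DVL3 at 3901 held 40 and 0, and GSK3B at 7257 held 29 and 0.

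**Figure D5:**
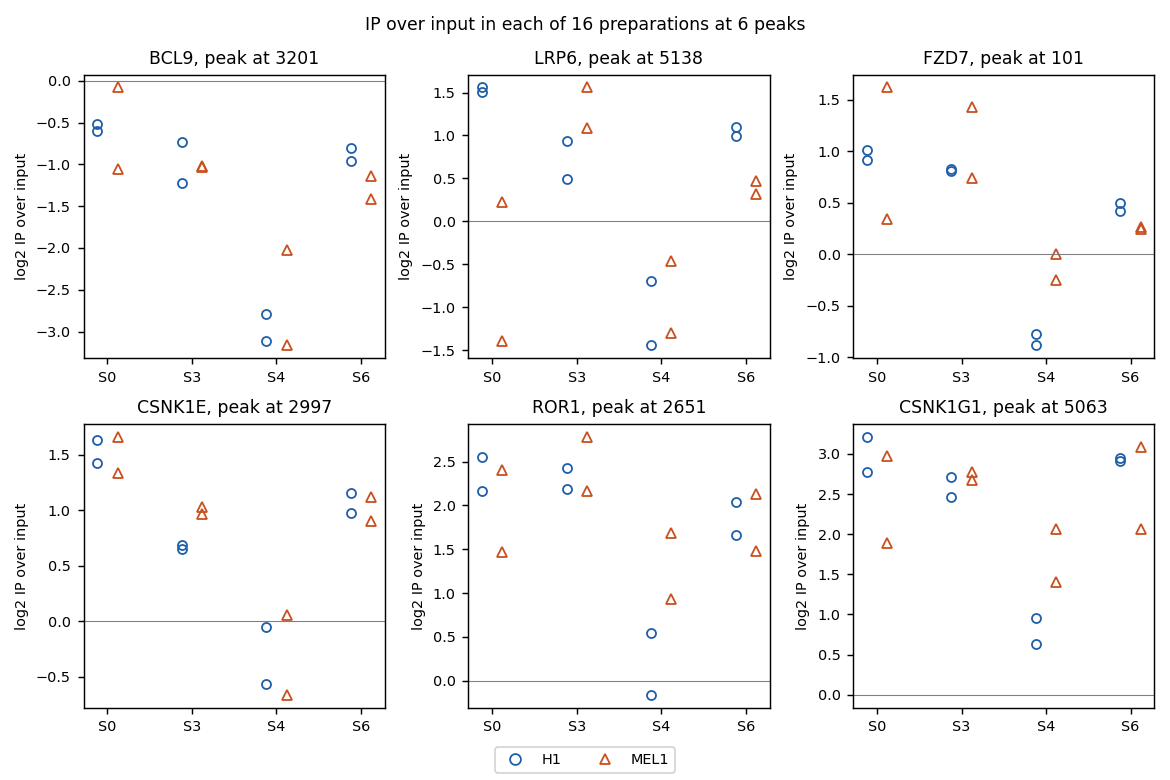
Log2 IP over input in each of the 16 preparations at 6 peaks called lower at S4 than S3, with circles for H1 and triangles for MEL1. In every panel the 4 S4 points lie below the 4 S3 points, and the S6 points lie above most S4 points.

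From S4 to S6, 10 of the 253 member peaks were higher and 2 lower, in 11 genes, against 5.31% and 2.26% of all peaks. The median change was 0.19 over all peaks and 0.03 over the member peaks. This comparison shares the S4 libraries with the one before, so they are not independent. The split differed between alternatives here too: RLE size factors gave 6 higher and 4 lower, IP libraries thinned to the same depth 5 and 5, the preparation block 13 and 0, and DESeq2 10 and 15. H1 alone gave 60 and 39, against 25.0% and 16.6% of all peaks, and MEL1 alone 5 and 13, against 5.88% and 5.65%. Without both H1 S4 preparations 6 were higher and 17 lower, and 3 of the 12 calls remained, while without both MEL1 S4 preparations 24 were higher and 10 lower. The share of all peaks called was not computed for these alternatives other than each line alone. The 10 higher were CSNK1E at 397 and 2997, BCL9 at 3201, TCF7L1 at 3501, CSNK1A1 at 1165, GSK3B at 7257, CSNK1G1 at 5063, APC at 4051, LRP6 at 5138 and CSNK1G3 at 501. CSNK1A1 at 1165 held 56 IP reads at S4 and 655 at S6 (relative change 3.10, edgeR adjusted p = 0.0269), and its ratio was 1.33 to 2.15 at S3 and 2.31 to 2.86 at S6, against -1.20 to 1.02 at S4.

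The 2 peaks that were lower at S6 were BCL9L at 4221 (relative change -4.32, edgeR adjusted p = 0.0383) and FZD7 at 1101 (-1.93, edgeR adjusted p = 0.0857). BCL9L at 4221 drew most of its 115 S4 IP reads from MEL1, which held 26 and 85, and its change, not shifted by the median, was -4.13 in both lines together and 0.29 in H1 alone. Without the first H1 S6 or the first MEL1 S6 preparation 7 peaks were called, and without the first MEL1 S4 preparation 21.

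Between S0 and S6, 1 member peak was lower and 0 higher, against 1.18% and 0.0766% of all peaks. It was FZD7 at 2701 (relative change -5.10, SE 1.52, edgeR adjusted p = 0.0961), with 290 and 420 IP reads in MEL1 S0, 17 and 12 in H1 S0 and 5 over the S6 libraries. With the preparation block 0 were called, as was the case without any 1 of the H1 S3, H1 S6, MEL1 S0, MEL1 S3 or MEL1 S6 preparations or the first H1 S4 preparation. DESeq2 called 2 higher and 4 lower, H1 alone 6 and 19 (1.43% and 9.33% of all peaks), and MEL1 alone 6 and 17 (2.49% and 8.40%). The members' median change was -0.39 and that of all peaks -0.35.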

How the data were processed

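H1 and MEL1 hESCs were profiled at 4 stages with 2 preparations per line and stage. The deposited values were raw read counts per merged m6A peak, which the authors made by counting reads in 50-bp bins of Ensembl (version 94) genes and calling and merging peaks with MeRIPtools. The aligner and genome build were not given in the sources used here. The members, roles and lists were chosen with earlier results of these data known.

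Input counts were summed per gene and fitted with edgeR (4.0.16, R 4.3.3) over all 16 input libraries, with TMM scaling, stage and cell line as terms and a minimum total count of 10. The difference between lines used a mean for each line and stage. m6A changes were fitted per peak over 32 libraries as the change of IP over input between stages, and ratios per preparation used a prior count of 1. Every called member was named, roles by counts and examples. The scripts were tested on simulated data. DESeq2 (1.42.0), RLE size factors, no filter, no line term, replicate or preparation blocks, each line alone, thinned IP libraries and libraries left out in turn were alternatives. IP and input of a preparation share RNA, which is where their pairing comes from. Counting error grows at low reads, and p-values cover the spread between these samples.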

Additional observations from a re-analysis of the deposited data

Results flagged for a closer look

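In each result here the change between 2 stages differed between MEL1 and H1, by the test of that difference (edgeR's quasi-likelihood test, adjusted over all genes tested). Values are log2 fold change in MEL1 minus that in H1, so a positive value means a higher change in MEL1. Where a line held 3 reads or fewer at a stage, the adjusted p is given instead. The 2 lines also differed in the markers given in the report, whose part in these differences was not tested.

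From S0 to S3 the change was higher in MEL1 for RSPO3 (3.68), NKD2 (1.63), DVL1 (1.59), BCL9L (1.48), AXIN1 (1.35), DVL3 (1.1), LRP5 (0.92), TLE1 (0.75), CSNK1D (0.71), CSNK1E (0.67), FZD5 (0.64), SFRP1 (0.61), CSNK1G2 (0.59) and ROR2 (0.51). It was lower in MEL1 for SFRP2 (-4.78), AXIN2 (-3.94), TLE4 (-3.31), KREMEN1 (-3.01), PRICKLE1 (-1.97), TCF7L1 (-1.95), TCF7L2 (-1.84), NKD1 (-1.83), VANGL2 (-1.17), FZD4 (-1.16), FZD6 (-1.07), WLS (-1.02), FZD2 (-0.85) and LRP6 (-0.59). The adjusted p of the difference was given by edgeR for FZD10 (1.59e-07) and WNT3 (6.62e-06).

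From S3 to S4 the change was higher in MEL1 for SFRP2 (5.63), FZD2 (2.64), TCF7L2 (2.39), SFRP5 (2.34), FZD4 (2.02), AXIN2 (1.66), FZD5 (1.55), SFRP1 (1.35), PRICKLE1 (1.25), ROR1 (1.2) and LRP5 (0.82). It was lower in MEL1 for RSPO3 (-3.43), WNT5A (-2.17), WNT11 (-1.42), VANGL2 (-1.27), TNKS (-1.05), FZD7 (-1.0), BCL9 (-0.99), ROR2 (-0.64) and TNKS1BP1 (-0.59). The adjusted p of the difference was given by edgeR for FZD10 (0.0154) and RSPO1 (0.0639).

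From S4 to S6 the change was higher in MEL1 for SFRP5 (6.84), KREMEN1 (4.69), WNT5A (4.4), FZD10 (2.51), KREMEN2 (2.41), ROR2 (1.49), FZD7 (1.44), TCF7L1 (1.32), FZD5 (1.07), CSNK1A1 (0.83), LRP5 (0.81), LGR4 (0.78) and FZD6 (0.76). It was lower in MEL1 for WNT11 (-2.93), TLE1 (-1.71), RSPO3 (-1.6), FZD4 (-1.43), SFRP1 (-1.36), DVL3 (-1.0) and BCL9L (-0.62).

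From S0 to S6 the change was higher in MEL1 for SFRP5 (9.38), FZD5 (3.27), WNT5A (2.57), LRP5 (2.55), KREMEN2 (1.75), FZD2 (1.75), DVL1 (1.72), PRICKLE3 (1.63), ROR2 (1.36), BCL9L (1.3), FZD7 (0.86), AXIN1 (0.85), LGR4 (0.63), SFRP1 (0.6) and CSNK1E (0.41). It was lower in MEL1 for NKD1 (-2.94), FZD10 (-2.5), VANGL2 (-2.42), AXIN2 (-2.31), TLE4 (-1.98), APC (-1.61), TNKS (-1.18), PRICKLE1 (-1.13), WLS (-0.81), TCF7L1 (-0.77), BCL9 (-0.7), TNKS1BP1 (-0.55) and TLE1 (-0.54). The adjusted p of the difference was given by edgeR for WNT3 (6.48e-07).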

How the results depend on the processing

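Called members or member peaks moved with the processing mostly between neighbouring stages, and the cause was not tested. In expression, S4 against S3 (3 members) became 8 with DESeq2, 0 without a line term, 11 with only the 8 libraries compared, 15 in H1 alone and 16 in MEL1 alone. S6 against S4 (3 members) became 6, 5, 7 and 16 with DESeq2, the 8 libraries, H1 alone and MEL1 alone. In m6A, S4 against S3 (15 peaks) became 4 with RLE size factors, 7 without a line term, 6 with TMM within each library type, 3 with thinned IP libraries, 116 in H1 alone and 33 in MEL1 alone. S6 against S4 (12 peaks) became 25 with DESeq2 and 99 in H1 alone. S6 against S0 (1 peak) became 0 with RLE, without a line term, with TMM within each library type and with thinning, 6 with DESeq2, 25 in H1 alone and 23 in MEL1 alone. S3 against S0 (0 peaks) became 20 in H1 alone and 17 in MEL1 alone. Enriched peaks fell to 44 at S0 and 41 at S3 with RLE, and to 45 at S3 with DESeq2. In H1 alone SFRP5 at S6 against S0 reversed to -1.51, and BCL9L at 4221 at S6 against S4 to 0.29. In alternatives chosen after seeing the data, S4 against S3 gave 41 peaks without both MEL1 S4 preparations and 13 without both H1 S4 preparations (10 higher), and S6 against S4 gave 34 and 23. For alternatives other than each line alone, the share of all genes or peaks called was not computed. Whether those counts moved with all genes or peaks was therefore not tested.

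With the preparation as a block, which pairs IP with input, S4 against S3 gave 25 peaks, S6 against S0 gave 0, and no other count moved by over 1.5 times. The replicate number across stages shares no known source, and a block on it called 20, 2, 3 and 26 members (S3 against S0, S4 against S3, S6 against S4, S6 against S0).

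Leaving out 1 library or preparation at a time, called members ranged from 18 to 21, 1 to 6, 2 to 4 and 23 to 29 in that order, and line differences from 25 to 33, 14 to 25, 17 to 23 and 22 to 33. Called peaks ranged from 0 to 0, 1 to 20, 7 to 21 and 0 to 1. Enriched peaks ranged from 58 to 73 at S0, 65 to 78 at S3, 54 to 67 at S4 and 60 to 78 at S6. Of the values of single genes and peaks under all alternatives, 1204 and 518 kept direction and call and 70 and 235 kept direction only. Of the 15 peaks lower at S4 than S3, 6 held 2 IP reads or fewer at S4, too few for a fold, in libraries that included 2 of H1 with 11661733 and 13999180 IP reads.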
